A study of Mus musculus with 6 samples.

Results

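Resting cultures of enteric glial cells (EGCs) were described from all the genes counted in their bulk poly(A) RNA sequencing libraries. These are the 3 libraries that the labels name as controls, of 6 in the series. All of them came from neurospheres, free-floating clusters of neural progenitors, grown from the gut of C57BL/6J mice at E14.5, counted in days of gestation, and no transgene or mutation is labelled. Per the methods, spheres were dissociated and plated in medium with serum until confluence, and no sorting step was stated for these cultures. The 3 control cultures received no lipopolysaccharide (LPS). The other 3 libraries came from cultures given LPS at 100 ng/ml for 12 h and were not used in any value below. The labels give replicate numbers 1, 2 and 3 and do not say whether these are separate litters, preparations or dishes, so the spread between them may be partly technical.

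EGCs are the glia of the enteric nervous system, the network of neurons that runs through the gut wall. They arise, with the enteric neurons, from neural crest cells that migrate into the embryonic gut, and the transcription factor Sox10 maintains their identity. In the adult muscle layer they lie beside neurons, interstitial cells of Cajal, smooth muscle cells and resident macrophages, and they are known to release growth factors and cytokines that reach these neighbours. The study asked which secreted factors cultured EGCs express that could act on monocytes and macrophages.

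Each library held between 21280920 and 23664312 counts, and 46603 gene identifiers were listed, and 23175 of them had a count in some control library. Levels are given as length-corrected CPM (lcCPM): counts per kilobase of exon, scaled so that a library sums to about 1000000. The scale can be compared between genes and between libraries. Levels are listed in the order of control replicates 1, 2 and 3 throughout. At 1 lcCPM or more in all 3 cultures were 14010 genes, of which 12581 were protein-coding, and 1532 genes reached 100 lcCPM in each. A gene with 3 counts or fewer in each library was taken as at the floor, which corresponded to 0.127 to 0.141 CPM and covers counting error only. With a single group of 3 no test was possible, and all comparisons below are between the values of the cultures.

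Control replicate 3 stood apart from replicates 1 and 2. Over 11133 genes with at least 100 counts in every library, the median gene differed 1.06-fold between replicates 1 and 2, against 1.16-fold between replicates 1 and 3 and 1.14-fold between replicates 2 and 3. Differences of 1.5-fold or more were seen for 0.952% of these genes between replicates 1 and 2, for 17.8% between 1 and 3, and for 14.3% between 2 and 3. Replicates 1 and 2 differed beyond counting error, with a median squared difference of 1.43 times the counting variance where counting error alone gives 0.455, and this comparison does not cover noise of library preparation. The biological coefficient of variation (BCV, the replicate-to-replicate spread beyond counting error) was 0.225 over the 3 cultures and 0.0705 without replicate 3. Means over the 3 cultures therefore hide a step, and levels are given culture by culture.

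**Figure D1:**
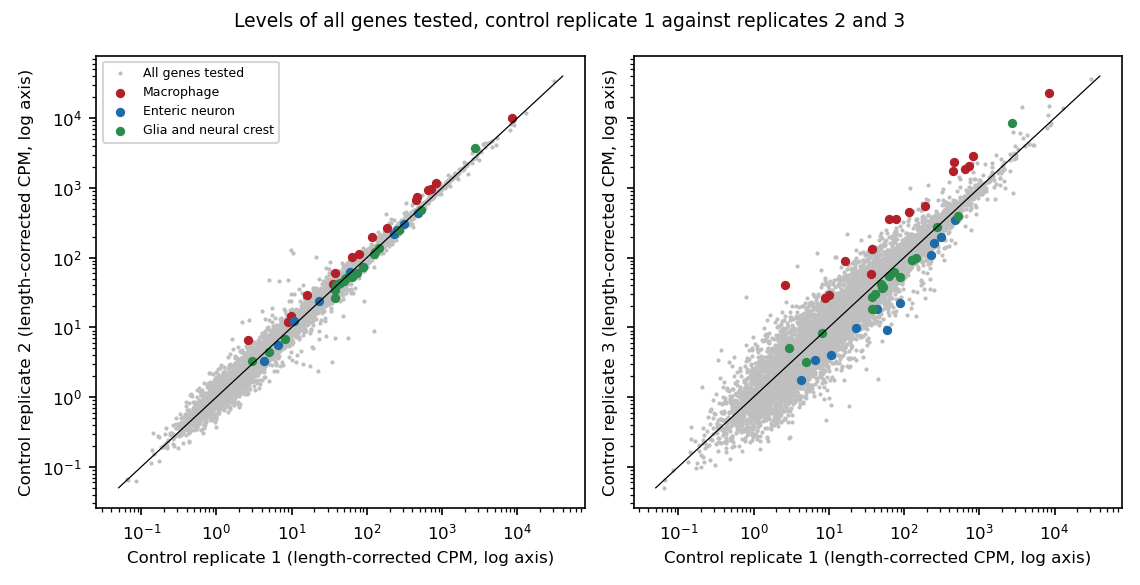
Levels (length-corrected CPM, log axes) of the 14402 genes tested for spread in control replicate 1 (x axis) against replicate 2 (left) and replicate 3 (right), with markers of macrophages, enteric neurons and glia in colour and the line of equality in black. Replicates 1 and 2 lie close to the line, whereas in replicate 3 all 16 macrophage markers lie above it and all 11 neuronal markers tested lie below it.

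The most abundant protein-coding transcripts came from several cell types and from general housekeeping. Lyz2, the lysozyme of macrophages and other myeloid cells, had the highest mean of all protein-coding genes, with 8357, 10077 and 23027 lcCPM, a rank that rests on replicate 3. The mitochondrial mt-Co1, at 12904, 11645 and 13814 lcCPM, was above it in replicates 1 and 2. Next by mean were the lysosomal protease Ctsd at 8354, 9164 and 15012 lcCPM and the ferritin light chain Ftl1 at 8146, 8199 and 11031 lcCPM. The other 16 of the 20 highest protein-coding genes were mt-Nd1, Eef1a1, Spp1, mt-Cytb, Apoe, Sparc, Psap, Tmsb4x, Rplp1, mt-Nd2, Fth1, mt-Nd5, Ctsb, Lgals1, Actb and Col1a1, with means from 3381 to 8525 lcCPM. They thus include matrix proteins (Sparc, Col1a1), lysosomal proteins (Psap, Ctsb) and the matricellular cytokine Spp1. No glial marker other than Apoe, which macrophages also express, was among them. One short non-coding gene, Gm23935, exceeded all of these at 31021, 33934 and 36026 lcCPM, and all of its sequence recurs in transcripts of other genes, so its level is uncertain. More than 50% of the sequence of mt-Co1, Ftl1 and Rplp1 is also shared with other transcripts, and their counts depend on how such reads were assigned.

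The glial identity of the cultures was examined first. Of 20 glial and neural crest markers, 19 were at 1 lcCPM or more in every culture. Sox10 (chromosome 15, 79154908 to 79165240, minus strand, ENSMUSG00000033006, GRCm38) was at 126, 111 and 91.9 lcCPM. The calcium-binding protein S100b (chromosome 10, 76253853 to 76261159, plus strand, ENSMUSG00000033208) was at 63.4, 52.6 and 54.8 lcCPM. Both markers of the label were therefore present at similar levels in the 3 cultures, with Sox10 lowest in replicate 3. Both genes are protein-coding and the counts cover their exons.

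The other glial genes spanned a wide range of levels. The p75 neurotrophin receptor Ngfr was the highest after Apoe, at 518, 484 and 399 lcCPM. The small heat shock protein Cryab was at 270.3, 248 and 278 lcCPM, the cadherin Cdh19 at 145, 139 and 97 lcCPM and the ectonucleotidase Entpd2 at 129, 121 and 91.2 lcCPM. In contrast, the mature glial filament Gfap was near the bottom of the list at 2.95, 3.27 and 5.1 lcCPM, and the radial glial fatty acid binding protein Fabp7 was at 8.13, 6.86 and 8.29 lcCPM. Receptors that guide enteric neural crest cells were retained, with the endothelin receptor Ednrb at 73.1, 59.4 and 61.1 lcCPM, the neuregulin receptor Erbb3 at 53.2, 51.2 and 38.5 lcCPM and the GDNF receptor Ret at 38.2, 40.0 and 18.5 lcCPM. Of these, Ret was at least 1.5-fold lower in replicate 3 than in both other cultures.

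Summed over the list, glial transcripts took 0.461%, 0.537% and 0.937% of the total, which reads as a rise in replicate 3 but rests on Apoe, the lipid carrier, at 2713, 3694 and 8487 lcCPM. Without Apoe the list took 0.18%, 0.162% and 0.129%. Of the 19 members tested for spread, 13 were lower in replicate 3 than in both other cultures and 4 were higher, where 6228 and 6185 of all 14402 genes tested were. At the 1.5-fold limit 2 were higher (Apoe and Gfap) and 1 lower (Ret), against 8.21% and 10.2% of all genes tested. The median member in replicate 3 was at 0.742 times its mean in replicates 1 and 2. The same ratio over all 14402 genes tested was 0.998. In bulk RNA, fewer cells of a type and less RNA per cell cannot be told apart, and this holds for every marker list below.

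**Figure D2:**
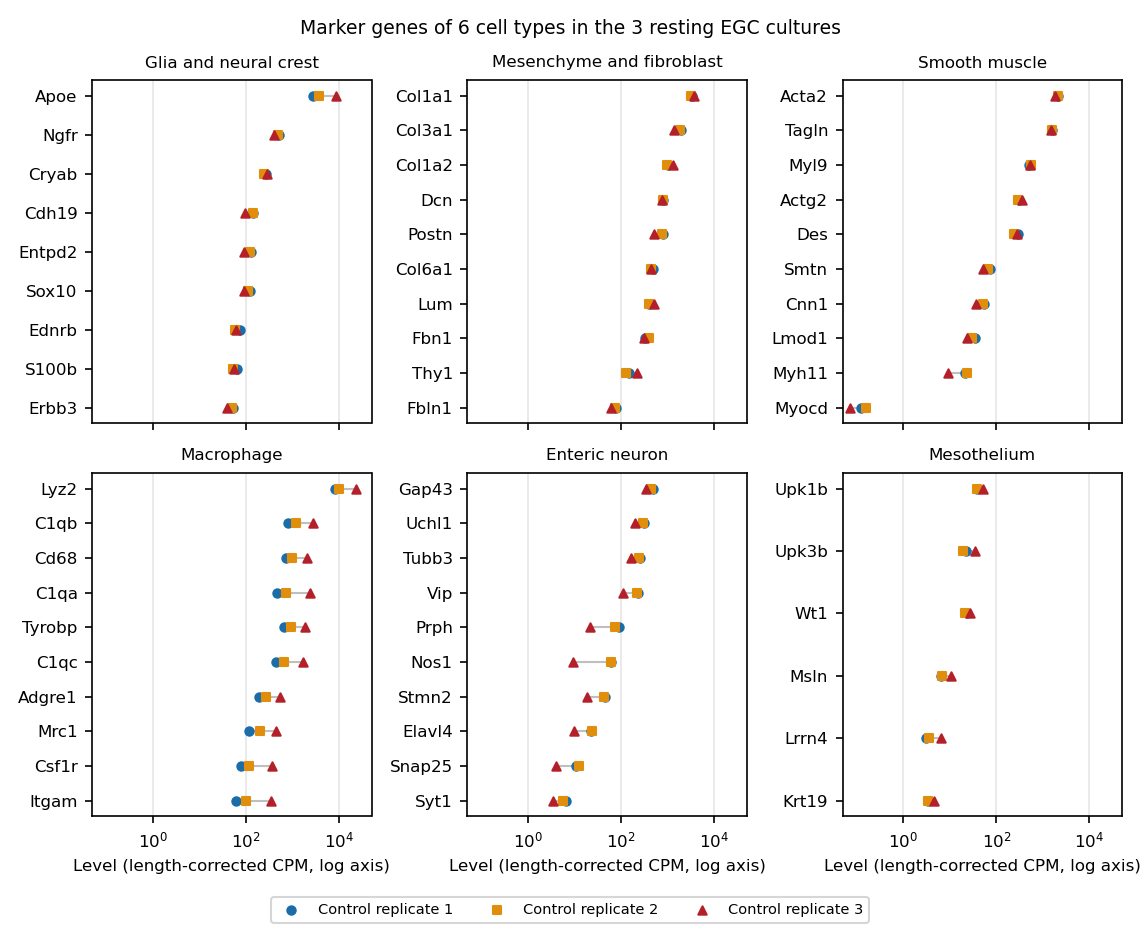
Levels (length-corrected CPM, log axis) of leading markers (6 to 10 per list) of 6 cell types in the 3 resting cultures, 1 symbol per culture and a grey line over their range. Most mesenchymal and smooth muscle markers lie close together between cultures, although Myh11 is at least 1.5-fold lower in replicate 3. Macrophage markers are highest in replicate 3 and neuronal markers lowest there.

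Genes of mesenchymal cells were abundant in every culture. All 12 mesenchymal and fibroblast markers were at 10 lcCPM or more in each culture, and the list took 0.963%, 0.927% and 0.875% of transcripts. Col1a1 (chromosome 11, 94936224 to 94953042, plus strand, ENSMUSG00000001506), the main fibrillar collagen chain, was at 3270.1, 3245 and 3628 lcCPM. Its mean of 3381 ± 214 lcCPM (SD, n = 3) compares with 109.7 ± 17 lcCPM (SD, n = 3) for Sox10, and the ranges of the 3 cultures did not overlap. Of the 12 members, 9 had means above that of Sox10, and Fbln1, Pdgfra and Twist1 were below it. The glial marker Apoe was below Col1a1 in replicate 1 and above it in replicates 2 and 3. Col3a1 was at 1909, 1809 and 1399.7 lcCPM, Col1a2 at 1011, 982 and 1275 lcCPM and the proteoglycan Dcn at 813, 795 and 743 lcCPM. Replicate 3 was not uniformly apart here: Col1a2 and the keratan sulfate proteoglycan Lum were highest in it, whereas Postn was lowest in it at 787, 761 and 512 lcCPM. The fibroblast receptor Pdgfra was steady at 63, 68.8 and 68.3 lcCPM. The mesodermal transcription factor Twist1 was at 37.9, 34.3 and 21.7 lcCPM. It was the single member of the 12 at least 1.5-fold lower in replicate 3, a share near the 10.2% of all genes tested.

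Contractile genes were also abundant, and most differed little between cultures. The smooth muscle list took 0.504%, 0.503% and 0.432% of transcripts. Acta2 (chromosome 19, 34241090 to 34255590, minus strand, ENSMUSG00000035783), smooth muscle actin, was at 2060.1, 2151 and 1796 lcCPM and the actin cross-linker Tagln at 1531, 1538 and 1458 lcCPM. The light chain Myl9 was at 502, 548 and 519 lcCPM and enteric actin Actg2 at 301, 298 and 360.1 lcCPM. Muscle desmin (Des) was at 293, 241 and 275 lcCPM, and Smtn, Cnn1 and Lmod1 had means of 62.8, 47.5 and 29.3 lcCPM. The lowest members were the myosin heavy chain Myh11 at 21.3, 23.2 and 9.25 lcCPM and the master coactivator Myocd at 0.126, 0.157 and 0.0733 lcCPM. Acta2 and Tagln are also expressed by myofibroblasts, and these libraries cannot assign them to a cell.

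The CArG box, the site bound by serum response factor at contractile genes, was searched on both strands in RefSeq promoter windows (GRCm38.p6, 250 bases before to 50 after the transcription start). Of the 10 smooth muscle genes, 6 had a window. The box was found in 1 of these, that of Myl9, against 1.63% of all 32851 windows. The Myl9 window is shown because it is the one that holds the box, printed in capitals.
Myl9, chr2:156775214-156775513, plus strand: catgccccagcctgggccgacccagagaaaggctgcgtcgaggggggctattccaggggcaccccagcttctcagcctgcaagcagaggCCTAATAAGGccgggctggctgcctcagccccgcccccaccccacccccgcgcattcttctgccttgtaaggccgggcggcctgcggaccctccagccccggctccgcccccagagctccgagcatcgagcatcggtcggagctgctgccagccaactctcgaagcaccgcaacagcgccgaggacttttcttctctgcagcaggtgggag

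Macrophage genes differed widely between the cultures. All 16 macrophage markers were at 1 lcCPM or more in each culture, and every one was lowest in replicate 1 and highest in replicate 3. Together they took 1.24%, 1.56% and 3.43% of transcripts, and 0.378%, 0.54% and 1.23% without Lyz2 (chromosome 10, 117277331 to 117282321, minus strand, ENSMUSG00000069516). In replicate 3, 15 of the 16 were at least 1.5-fold above both other cultures, a state shared by 8.21% of all genes tested. In replicate 1, 6 of the 16 were at least 1.5-fold below both other cultures, against 1.55% of all genes tested. The exception to the first count was Mertk, a receptor for apoptotic cells, at 35.8, 41.6 and 57.3 lcCPM.

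The complement C1q chains were among the highest macrophage transcripts, with C1qb at 820.1, 1174 and 2814 lcCPM, C1qa at 458, 733 and 2356 lcCPM and C1qc at 446, 665 and 1727 lcCPM. The lysosomal glycoprotein Cd68 was at 720.2, 977 and 2083 lcCPM and the signalling adaptor Tyrobp at 652, 918 and 1865 lcCPM. The CSF1 receptor Csf1r, on which macrophage survival depends, was at 78, 114 and 362 lcCPM, and the lineage transcription factor Spi1 (PU.1) at 37.1, 60.2 and 131 lcCPM. For each of these genes replicate 3 exceeded replicate 2 by more than replicate 2 exceeded replicate 1. The widest gap was that of the fractalkine receptor Cx3cr1, at 2.65, 6.53 and 40.6 lcCPM. Defining genes of other blood cells were at or near the floor: of 11 markers of lymphocytes, neutrophils, mast cells and dendritic cells, 10 were at the floor in all cultures, and S100a8 was at 0.698, 0.727 and 4.52 lcCPM. Haemoglobin genes Hba-a1, Hbb-bs and Hbb-bt had no count in any control library, although more than 50% of their sequence is shared with other transcripts. Alas2, which is specific to red cell precursors, was at 0.672, 0.42 and 0.261 lcCPM.

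The letters GAGGAAG, the core bound by PU.1, were found in 4 of 12 windows of macrophage genes (33.3%) and in 13.6% of all windows, on either strand. The 4 genes were C1qc, Fcgr1, Itgam and Mrc1. The C1qc window is shown because the C1q chains were among the highest macrophage transcripts, with the match in capitals on the opposite strand.
C1qc, chr4:136892865-136893164, minus strand: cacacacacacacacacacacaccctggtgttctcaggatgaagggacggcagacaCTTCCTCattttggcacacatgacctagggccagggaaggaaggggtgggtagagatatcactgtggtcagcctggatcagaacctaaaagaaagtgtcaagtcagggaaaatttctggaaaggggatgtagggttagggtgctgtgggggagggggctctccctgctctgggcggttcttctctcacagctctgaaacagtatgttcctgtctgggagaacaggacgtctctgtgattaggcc

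Neuronal transcripts were also detected and went the other way. Of 12 enteric neuron markers, 11 were at 1 lcCPM or more in each culture, together 0.156%, 0.145% and 0.0844% of transcripts. All 11 that were tested were lowest in replicate 3, and 10 of them at least 1.5-fold below both other cultures, against 10.2% of all genes tested. The growth cone protein Gap43, which glia also express, was the exception at 481, 441 and 351 lcCPM. The neuronal hydrolase Uchl1 was at 310.5, 299 and 199 lcCPM and neuronal tubulin Tubb3 at 253, 245 and 160.4 lcCPM. Inhibitory motor neuron genes were prominent, with the peptide gene Vip at 228, 218 and 108 lcCPM and the nitric oxide synthase Nos1 at 59.7, 61.2 and 9.07 lcCPM. The acetylcholine synthesis gene Chat, in contrast, was at 0.377, 0.143 and 0 lcCPM.

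Neuropeptide genes were looked at after this pattern was seen. Galanin (Gal) was at 128, 128 and 22.5 lcCPM, Penk at 21.4, 16.1 and 3.65 lcCPM and Cartpt at 19.8, 17 and 5.04 lcCPM, all lowest in replicate 3. Npy went against them and was highest in replicate 3, at 99.8, 132 and 165 lcCPM. The enteric neural crest factor Hand2 was at 209, 197 and 127 lcCPM. Interstitial cells of Cajal, the pacemakers of the gut, were represented by the chloride channel Ano1 at 55.5, 48.7 and 10.0 lcCPM and by Kit at 26.1, 34.1 and 7.86 lcCPM, both at least 1.5-fold lower in replicate 3, against 10.2% of all genes tested. Etv1, the other of the 3 markers, was also lowest there, at 9.5 lcCPM, but less than 1.5-fold below replicate 2.

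Other cell types of the gut wall contributed little. Of 7 epithelial markers the keratins Krt18 and Krt8 reached 1 lcCPM in each culture and the other 5 did not, and Cdx2, which defines intestinal epithelium, had no count. Of 6 endothelial markers, Emcn was at 9.13, 8.02 and 0.464 lcCPM and at least 1.5-fold lower in replicate 3, Vwf was at 3.92, 6.18 and 13.4 lcCPM and at least 1.5-fold higher there, and Kdr was at 4.04, 3.78 and 5.75 lcCPM, whereas Cdh5 stayed below 1 lcCPM and Tie1 at the floor. Pecam1 reached 1 lcCPM in replicate 3 alone. Mesothelium, the serosal lining, was present at a low level in all cultures. Its 6 markers were led by Upk1b at 38.2, 38.1 and 51.9 lcCPM and Wt1 at 23.4, 21.4 and 27.7 lcCPM, and all 6 were highest in replicate 3, as were 6185 of all 14402 genes tested, with 3 of the 6 at least 1.5-fold higher (8.21% of all genes tested). Of the pericyte markers, Pdgfrb reached 255, 242 and 282 lcCPM, and the more restricted Rgs5 20.0, 16.8 and 6.73 lcCPM.

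The ligand genes that the cultures expressed at rest were examined next. Of 101 cytokine and growth factor genes, 81 were at 1 lcCPM or more in each culture and 17 at 100 or more, and the list took 1.76%, 1.8% and 2.67% of transcripts. Spp1 (osteopontin) accounted for the higher sum in replicate 3, at 3743, 4358 and 14467 lcCPM, since the list without it took 1.37%, 1.36% and 1.29%. Spp1 had the highest mean of the list through replicate 3, and was below prosaposin in replicates 1 and 2. Prosaposin (Psap), a lysosomal and neurotrophic protein, was at 4368, 4556 and 5672 lcCPM, and progranulin (Grn) at 835, 969 and 1668 lcCPM. The matricellular factor Ctgf was at 1047, 1077 and 823 lcCPM and Gas6, which bridges apoptotic cells to phagocytes, at 939, 927 and 1030.0 lcCPM. Ctgf was above Grn in replicates 1 and 2 and below it in replicate 3. Ctgf and Gas6 stayed within 1.5-fold between cultures, whereas Spp1 and Grn were highest in replicate 3.

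Among the 10 secreted factors the study discussed, Csf1, the macrophage growth factor, was the most even. It was at 325, 306 and 328 lcCPM, and Il34, the other ligand of its receptor, at 4.78, 3.26 and 7.53 lcCPM. Tgfb1 was at 102, 109 and 191 lcCPM and at least 1.5-fold higher in replicate 3, while Tgfb3 was at 185, 170.1 and 179 lcCPM. The order of these isoforms thus changed: Tgfb3 was above Tgfb1 in replicates 1 and 2 and just below it in replicate 3. Lif was at 15.4, 13.8 and 11.7 lcCPM, at percentile 61.9 of genes with a count. Cyr61 was at 537, 495 and 351 lcCPM and lowest in replicate 3. The stress-induced Gdf15 was at 69.4, 53.1 and 26.6 lcCPM and lowest in replicate 3, and Cxcl10, an interferon-induced chemokine, was lowest of the 10 factors at 2.44, 1.94 and 0.697 lcCPM.

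Neurotrophic ligands were present in all 3 cultures. Gdnf, on which enteric neural crest cells depend, was at 19.2, 18 and 16.2 lcCPM, its relative Nrtn at 27.6, 28.8 and 13 lcCPM and Artn at 28.4, 24.5 and 25 lcCPM. Bdnf was at 30.9, 27 and 12.5 lcCPM. Bdnf and Nrtn were at least 1.5-fold lower in replicate 3, Gdnf and Artn were not. Pleiotrophin (Ptn) and midkine (Mdk), heparin-binding growth factors of the embryo, were at 474, 477 and 159.7 lcCPM and 146, 150.3 and 80.5 lcCPM and also lower in replicate 3.

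Several morphogens were also lowest in replicate 3. The bone morphogenetic protein relative Gdf6 was at 337, 309 and 92 lcCPM, Bmp4 at 61.8, 56.6 and 20.5 lcCPM and Wnt5a at 49.6, 45.6 and 28.5 lcCPM. The lymphatic factor Figf (VEGF-D) was at 252, 212 and 34 lcCPM and Edn3, the ligand of Ednrb, at 12.6, 16.4 and 2.56 lcCPM. Of 89 ligands tested, 25 were at least 1.5-fold lower in replicate 3, against 10.2% of all genes tested, and 16 at least 1.5-fold higher, against 8.21%. The higher ones included Wnt4 at 11, 9.55 and 29.7 lcCPM, Hgf at 8.98, 8.47 and 19.4 lcCPM, Pdgfb at 5.97, 8.49 and 17.8 lcCPM and Osm at 2.56, 3.41 and 9.05 lcCPM.

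Classical inflammatory cytokines were low at rest. Tnf was at 5.32, 9.24 and 16.7 lcCPM and Il6 at 9.7, 8.59 and 11.6 lcCPM. Il1b, Il12a, Csf2, Csf3, Pspn, Ihh and Shh were at the floor (3 counts or fewer in each library) in all cultures, and Il1b had a level above 0 in replicate 3 alone, of 0.247 lcCPM. Il10 was at 0.37, 0.77 and 0.839 lcCPM and Il33, the alarmin of stromal cells, at 35.1, 36.2 and 27.7 lcCPM.

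**Figure D3:**
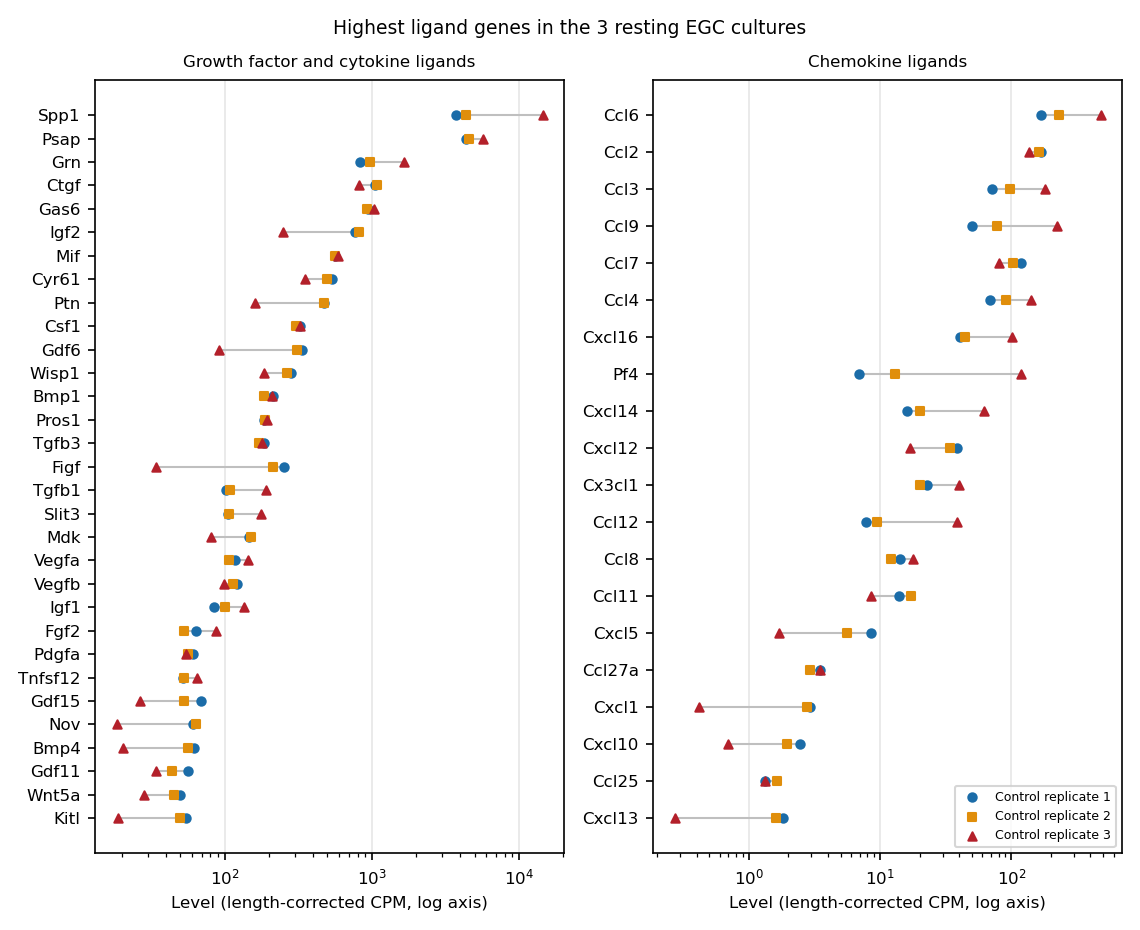
Levels (length-corrected CPM, log axis) of 31 of the 32 highest growth factor and cytokine genes (left) and the 20 highest chemokine genes (right) in the 3 resting cultures, 1 symbol per culture and a grey line over their range. Spp1, Ccl6, Ccl9 and Pf4 are highest in replicate 3, whereas Ptn, Gdf6, Figf and Cxcl12 are lowest there.

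Chemokine genes differed between cultures in both directions. Of 34 chemokine genes, 17 were at 1 lcCPM or more in each culture, and of 18 tested, 9 were at least 1.5-fold higher in replicate 3 and 3 lower, against 8.21% and 10.2% of all genes tested. The monocyte attractant Ccl2 was at 168, 163 and 136 lcCPM and its neighbour Ccl7 at 117, 103 and 80.2 lcCPM, both slightly lower in replicate 3. Ccl6, Ccl3, Ccl4 and Ccl9, which macrophages are known to make, were lowest in replicate 1 and highest in replicate 3, the order of the macrophage markers. Ccl6 was at 169, 230.4 and 479 lcCPM and Ccl9 at 50.03, 78.4 and 222 lcCPM. Cx3cl1 (fractalkine), a membrane-bound chemokine, was also higher in replicate 3, at 22.6, 20.2 and 40.2 lcCPM. The platelet factor Pf4 had the steepest step of the chemokine genes tested, at 6.94, 13.1 and 117 lcCPM. Stromal Cxcl12 was lowest in replicate 3 at 38.3, 34.2 and 16.8 lcCPM, and the eosinophil attractant Ccl11 also, at 14, 17.3 and 8.56 lcCPM. The neutrophil attractant Cxcl5 was at 8.58, 5.6 and 1.69 lcCPM, Cxcl1 at 2.93, 2.78 and 0.419 lcCPM and Cxcl2 at 0.39, 0.325 and 0 lcCPM. The floor was reached by Ccl19, Ccl22, Ccl24, Cxcl3, Cxcl9, Cxcl11, Cxcl15 and Xcl1.

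Receptors were examined on the same scale. Of 42 receptor tyrosine kinase genes, including Igf2r, which has no kinase domain, 31 were at 1 lcCPM or more in each culture. The Gas6 receptor Axl was the highest at 452, 438 and 314 lcCPM, followed by Igf2r at 302, 329 and 216 lcCPM. Fgfr1, the receptor for the FGF used to grow neurospheres, was at 130.0, 130.1 and 119.6 lcCPM and Egfr at 38.3, 40.4 and 32.6 lcCPM. The neurotrophin receptor Ntrk2 was low at 0.326, 0.34 and 0.423 lcCPM, while its partner Ngfr was among the highest glial genes. Of 35 members tested, 10 were at least 1.5-fold lower in replicate 3, against 10.2% of all genes tested, among them Met at 17.6, 16.1 and 5.74 lcCPM, Epha2 at 42.4, 38.9 and 18.8 lcCPM and Ltk at 9.43, 7.21 and 1.92 lcCPM. The VEGF receptor Flt1 was higher there, at 10.1, 9.03 and 30.3 lcCPM.

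Cytokine receptors were nearly all expressed. Of 45 cytokine and TGF-β family receptor genes, 43 were at 1 lcCPM or more in each culture, and the list took 0.317%, 0.308% and 0.317% of transcripts. The TNF receptor Tnfrsf1a was at 307, 321 and 349 lcCPM and Tgfbr2 at 150.1, 164 and 202 lcCPM. The IL-1 receptor Il1r1 was at 21.3, 22.8 and 23 lcCPM, and the shared IL-6 family chain Il6st at 123, 122 and 111 lcCPM. These receptors differed little between cultures. Of the 45, 8 were at least 1.5-fold higher in replicate 3 and 5 lower, against 8.21% and 10.2% of all genes tested. The higher ones included Csf2rb at 8.94, 12.2 and 41.3 lcCPM, Il10ra at 9.96, 14.4 and 33 lcCPM and Il4ra at 53.5, 55.3 and 145 lcCPM. The lower ones were Cntfr at 26.2, 23.8 and 13.4 lcCPM, Tnfrsf11b at 54.8, 35.2 and 21.4 lcCPM, Acvrl1, Acvr2a and Bmpr1b. Of 20 chemokine receptors 8 passed 1 lcCPM in each culture. Cxcr4 was at 28.6, 42.1 and 120.2 lcCPM and Ccr1 at 3.76, 7.18 and 75 lcCPM, whereas the scavenger receptor Ackr3 was lowest in replicate 3 at 27.4, 22.3 and 4.78 lcCPM.

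Receptors for transmitters, nucleotides and lipids were detected for 30 of 41 genes at 1 lcCPM or more. The thrombin receptor F2r was by far the highest at 720.0, 761 and 889 lcCPM. The sphingosine receptors went in opposite directions, S1pr1 being at 35.4, 47 and 108 lcCPM and S1pr3 at 63.7, 65.6 and 30.7 lcCPM. The nucleotide receptor P2ry12, known from microglia, was at 3.61, 6.54 and 20.3 lcCPM. The muscarinic receptors Chrm2 and Chrm3, found on smooth muscle and interstitial cells, were at 16.1, 13.6 and 1.76 and 8.7, 7.48 and 1.38 lcCPM. Htr2b, a serotonin receptor, was at 43.5, 33.2 and 51.9 lcCPM.

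Ligands and receptors were then read as pairs. Of 60 known pairs, both partners were at 1 lcCPM or more in every culture for 47, and at 10 or more for 28. The ligand alone passed in 10 pairs, the receptor alone in 2 and neither in 1. Highly expressed pairs were Gas6 with Axl, Csf1 with Csf1r, Igf2 with Igf2r and Psap with Lrp1. Both partners of the GDNF pathway passed, with Gdnf at 17.8 ± 1.53 lcCPM (SD, n = 3), its co-receptor Gfra1 at 134 ± 36 lcCPM and Ret at 32.2 ± 11.9 lcCPM.

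Of the chemokine pairs, some lacked the receptor and others did not. Cxcl12 with Cxcr4 or Ackr3, and Cx3cl1 with Cx3cr1, had both partners. Ccl2 had a mean of 156 ± 17.1 lcCPM (SD, n = 3), but its receptor Ccr2, which marks monocytes, was at 0.0477, 0.174 and 0.488 lcCPM. Cxcl16 was at 40.3, 44.4 and 101 lcCPM and Cxcr6 at 0.334, 0.174 and 0.488 lcCPM. Likewise Bdnf was without Ntrk2, and Ptn and Mdk were without Alk in replicate 3, where it was at 0.789 lcCPM. The receptor was alone for Nrg1, at 1.08, 0.585 and 0.971 lcCPM, whose receptor Erbb3 was given above, and for Il1b, whose receptor Il1r1 was present. The pairing is by gene level in the whole culture and does not say which cell holds which partner.

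**Figure D4:**
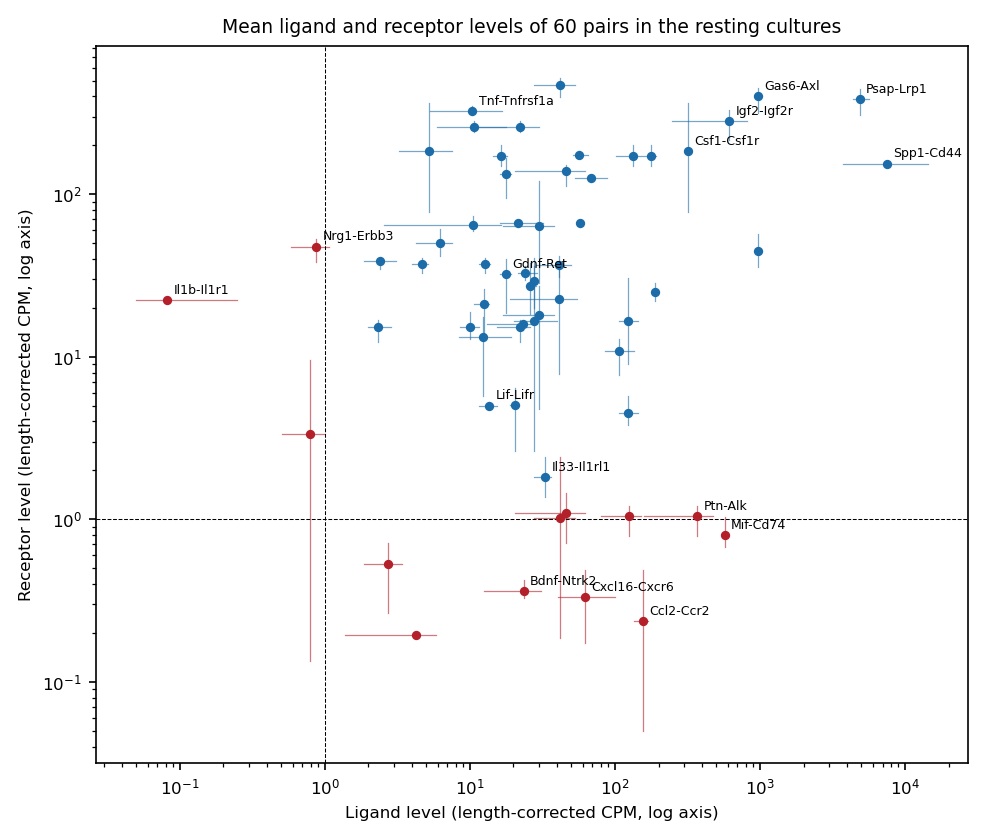
Mean levels (length-corrected CPM, log axes, n = 3) of ligand (x axis) and receptor (y axis) for 60 pairs in the resting cultures, with lines over the range of the 3 cultures, blue where both partners reached 1 in every culture (dashed lines) and red otherwise. Blue pairs number 47, and the red pairs at the lower right, such as Ccl2 with Ccr2 and Mif with Cd74, are those with a ligand and little receptor.

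Extracellular matrix genes were all expressed, at a wide range of levels. All 40 collagen and matrix genes were at 10 lcCPM or more in each culture, 30 of them at 100 or more, and together they took 4.41%, 4.52% and 4.87% of transcripts. Fibronectin (Fn1) was at 3064, 3568 and 2921 lcCPM, Sparc at 5349, 5099 and 4169.9 lcCPM and the galectin Lgals1 at 4013, 4381 and 3954 lcCPM. The basement membrane collagen Col4a1 was nearly constant at 2049, 2072 and 2111 lcCPM. Of the 40 members, 4 were at least 1.5-fold higher in replicate 3 and 5 lower, shares near the 8.21% and 10.2% of all genes tested. The higher ones included Thbs2 at 346, 359 and 632 lcCPM and Mfap5 at 20.5, 23.2 and 59.1 lcCPM. The lower ones included the crosslinking enzyme Lox at 1869, 1839.6 and 1099 lcCPM, the elastic fibre protein Fbln5 at 173, 164 and 90.0 lcCPM and Col11a1 at 78, 78.7 and 36.1 lcCPM.

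Matrix proteases and their inhibitors showed a similar evenness with a few exceptions. The collagen chaperone Serpinh1 was at 2526, 2271 and 1733 lcCPM and the gelatinase Mmp2 at 1402, 1392 and 1379 lcCPM. The inhibitor Timp1 was at 552, 521 and 1348 lcCPM, higher in replicate 3, whereas Timp2 was at 2019, 2106 and 1748 lcCPM. The aggrecanase Adamts5 had the widest range of the list and was lowest in replicate 3, at 118, 122 and 25.2 lcCPM. Timp4 was at the floor.

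Lysosomal genes accompanied the macrophage genes. All 25 members of the lysosome and phagocytosis list were at 10 lcCPM or more, and the list took 3.44%, 3.84% and 5.76% of transcripts. In replicate 3, 24 of 25 were higher than in both other cultures and 13 at least 1.5-fold so, against 8.21% of all genes tested, with a median of 1.64 times the mean of replicates 1 and 2. The protease Ctsb was at 2822, 3489 and 6351 lcCPM, Ctss, a protease of antigen-presenting cells, at 932, 1178 and 2233 lcCPM and Lgmn at 795, 1069.9 and 2262 lcCPM. Lamp2, a membrane protein of all lysosomes, was the exception at 402, 405 and 383 lcCPM, and Lamp1 was at 2611, 2664 and 2909 lcCPM. The part of the macrophage transcripts in the list was not tested.

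Genes of lysosomal biogenesis are known to share a short palindromic element bound by TFEB. Its letters TCACGTG were found in 4 of 25 windows of the list (16%), on either strand, against 3.77% of all windows. These belonged to Ctsa, Ctsd, Lamp1 and Lgmn. The window of Ctsd, the highest member, is shown with the matches in capitals, where 2 overlapping matches form one run of capitals.
Ctsd, chr7:142387778-142388077, minus strand: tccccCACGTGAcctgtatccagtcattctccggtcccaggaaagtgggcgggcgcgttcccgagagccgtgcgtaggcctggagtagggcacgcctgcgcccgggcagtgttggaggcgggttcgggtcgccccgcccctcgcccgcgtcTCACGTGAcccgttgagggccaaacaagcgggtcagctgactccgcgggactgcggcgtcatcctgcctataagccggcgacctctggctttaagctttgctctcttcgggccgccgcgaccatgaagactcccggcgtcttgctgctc

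Innate sensing genes were in part higher in replicate 3. Of 20 genes of LPS and pattern sensing, 18 were at 1 lcCPM or more. The LPS receptor Tlr4 was at 58.5, 65.1 and 67.1 lcCPM and its partner Ly96 at 35.9, 36.6 and 38.6 lcCPM, both similar in the 3 cultures. The co-receptor Cd14, in contrast, was at 34.7, 62.6 and 203 lcCPM, and the nucleic acid sensors Tlr7 and Tlr8 were at 42.5, 64 and 118 and 21.3, 29.5 and 90.4 lcCPM. Of the 20, 10 were at least 1.5-fold higher in replicate 3 and none lower, against 8.21% and 10.2% of all genes tested. Of the complement genes other than C1q, the anaphylatoxin receptor C5ar1 was at 89.5, 139 and 287 lcCPM and C3 at 45.1, 32.2 and 41.5 lcCPM.

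Antigen presentation genes were led by class I. B2m, the class I light chain, was at 2851, 2634 and 3145 lcCPM and H2-D1 at 364, 401 and 632 lcCPM. Class II genes were near the floor although macrophage markers were high: Cd74 was at 0.673, 0.701 and 1.03 lcCPM, H2-Ab1 at 0.377, 0.917 and 0.55 lcCPM and H2-Aa and the class II transactivator Ciita at the floor. The peptide loading gene H2-DMb1 was detected at 7.97, 9.01 and 15.5 lcCPM.

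Proliferation genes were expressed in all cultures and, apart from Ccne1 (36.5, 30.2 and 36.1 lcCPM), were highest in replicate 3. All 20 genes of G1/S and replication were at 1 lcCPM or more, with Pcna at 152, 177 and 282 lcCPM and the helicase subunit Mcm6 at 47.9, 57.6 and 112 lcCPM. Of the 20, 14 were at least 1.5-fold higher in replicate 3, against 8.21% of all genes tested. All 21 genes of G2/M and mitosis were higher in replicate 3 than in both other cultures and 11 at least 1.5-fold so, against the same 8.21%. Top2a was at 38, 41.7 and 74.1 lcCPM and the proliferation marker Mki67 at 22.7, 31.7 and 60.5 lcCPM. The median member in replicate 3 was at 1.66 times its mean in replicates 1 and 2 for G1/S and at 1.55 times for G2/M.

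Promoters of these genes carry sites that are textbook elements of cell cycle control. The core bound by E2F, searched as TTGGCGC or TTCCCGC on both strands, was found in 9 of 18 windows of G1/S genes (50%) and in 6.81% of all windows. The CCAAT box was found in 16 of 18 windows of G2/M genes (88.9%) and in 37.4% of all windows. The windows of Mcm6 and Top2a are shown because both genes were at least 1.5-fold higher in replicate 3 and hold several matches, with E2F cores in capitals in the first and CCAAT boxes, on either strand, in the other.
Mcm6, chr1:128359656-128359955, minus strand: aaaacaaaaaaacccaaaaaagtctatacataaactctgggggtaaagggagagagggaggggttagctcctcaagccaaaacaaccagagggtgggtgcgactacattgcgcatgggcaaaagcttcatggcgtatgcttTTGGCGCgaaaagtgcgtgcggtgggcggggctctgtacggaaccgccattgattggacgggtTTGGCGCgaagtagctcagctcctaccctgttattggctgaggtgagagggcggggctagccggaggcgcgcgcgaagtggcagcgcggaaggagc
Top2a, chr11:99024140-99024439, minus strand: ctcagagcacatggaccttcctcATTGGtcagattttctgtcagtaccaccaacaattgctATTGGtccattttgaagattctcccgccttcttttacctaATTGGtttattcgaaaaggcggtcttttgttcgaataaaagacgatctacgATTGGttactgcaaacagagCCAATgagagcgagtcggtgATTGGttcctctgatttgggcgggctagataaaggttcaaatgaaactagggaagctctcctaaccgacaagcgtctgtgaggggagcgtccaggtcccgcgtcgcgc

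Searches in the other lists gave smaller contrasts or none. The letters ACAAAG, a core of SOX proteins, were found in 15.4% of windows of glial genes and in 18.7% of all windows. The antioxidant response element, TGAC and GC separated by any 3 bases, was found in 26.1% of windows of iron and oxidative stress genes and in 12.4% of all windows. A match is a description of these letters in these windows.

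Glycolysis genes were the most even of the lists examined. All 16 glycolysis and lactate genes were at 10 lcCPM or more. None was 1.5-fold apart in any culture, where 8.21% of all genes tested were above and 10.2% below in replicate 3. Aldoa was at 1047, 1087 and 1068 lcCPM and Ldha at 648, 681 and 715 lcCPM. The median BCV of the list was 0.132, against 0.18 for all genes tested and 0.461 for the macrophage list. Among iron and redox genes, Fth1 was at 3756, 3823 and 5259 lcCPM, the haem-degrading enzyme Hmox1 was at 556, 557 and 1028 lcCPM and higher in replicate 3, and the metallothioneins Mt1 and Mt2 likewise, at 178, 185 and 278 and 116, 105 and 188 lcCPM.

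Transcripts of mitochondrial DNA gave very unequal levels. The lowest of mt-Co1, mt-Nd1, mt-Cytb, mt-Nd2, mt-Nd5 and mt-Nd4 was mt-Nd4, at 3087, 2516 and 2675 lcCPM. In contrast mt-Co2 was at 1.42, 1.23 and 0.229 lcCPM and mt-Co3 at 1.65, 1.72 and 1 lcCPM, although both encode subunits of the same enzyme as mt-Co1. Of the 31-base stretches of mt-Co2 and mt-Co3, 100.0% and 99.9% also occur in transcripts of another gene, against 63.9% for mt-Co1. How reads with several alignments were counted was not stated, so these levels are not comparable. The same holds for mt-Atp6, mt-Nd3 and mt-Nd4l.

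Immediate-early genes, which serum is known to induce, were expressed in these cultures without LPS. Atf3 was at 307, 300.2 and 281 lcCPM, Fos at 71.2, 66.8 and 72.6 lcCPM and Jun at 188, 184 and 217 lcCPM, with small differences between cultures, whereas Egr2 was at 4.61, 4.6 and 13.2 lcCPM. The membrane protein Ifitm3 was at 1048, 1037 and 940.0 lcCPM, but the typical antiviral genes were low, with Ifit1 at 5.95, 7.47 and 5.2 lcCPM and Mx1 at 0.213, 0.267 and 0.29 lcCPM. Bst2 was the interferon-stimulated gene with the clearest step, at 151, 212 and 359 lcCPM.

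Hox genes, which mark position along the body axis, were next. Of 39 Hox genes, 29 were at 1 lcCPM or more in each culture, led by Hoxa5 at 49.5, 44.7 and 24.8 lcCPM, Hoxc6 at 43.2, 38.4 and 27.7 lcCPM and Hoxb6 at 36.7, 38.9 and 25.2 lcCPM. The most posterior genes were low, with Hoxa13 at 2.02, 1.29 and 0.762 lcCPM and Hoxd13 at 1.82, 1.08 and 1.39 lcCPM, and Hoxb13, Hoxc12, Hoxd12, Hoxb1 and Hoxd1 were at the floor. No Hox gene was 1.5-fold higher in replicate 3, against 8.21% of all genes tested, and 16 of 32 tested were 1.5-fold lower, against 10.2%, with a median of 0.651 times the mean of replicates 1 and 2. Transcripts typical of both sexes were found in each culture: Xist, made from the inactive X chromosome, was at 45.7, 47 and 46.9 lcCPM and the Y-linked Ddx3y at 39.9, 38.3 and 64.3 lcCPM. Of the 5 sex-linked genes, 3 were at least 1.5-fold higher in replicate 3 and none lower, against 8.21% and 10.2% of all genes tested.

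Genes of single cultures were then ranked. Of 14402 genes tested, 1182 (8.21%) were at least 1.5-fold above both other cultures in replicate 3 and 1466 (10.2%) at least 1.5-fold below. In replicate 1 the corresponding shares were 1.05% and 1.55%, and in replicate 2 they were 0.5% and 0.576%. The macrophage list took 3.43% of transcripts in replicate 3 against 1.24% and 1.56% in the others, and its part in the differences of other genes was not tested.

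**Figure D5:**
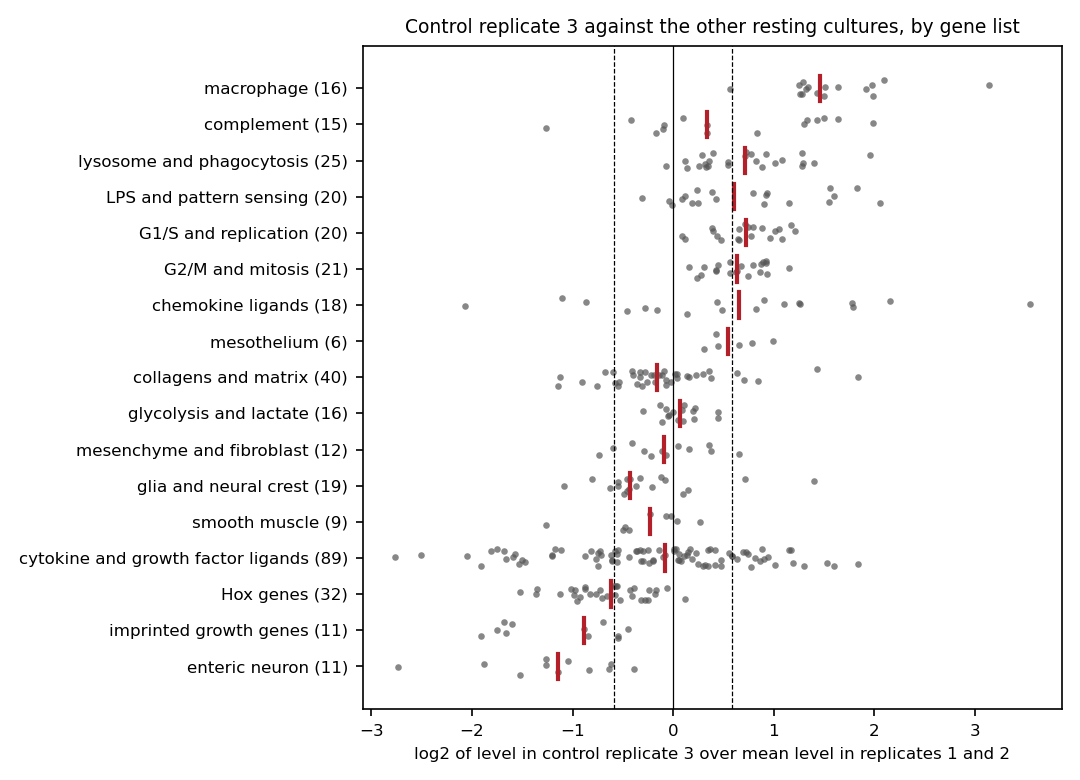
Ratio (log2) of the level in control replicate 3 to the mean of replicates 1 and 2 for each member of 17 gene lists, with the number of members tested in brackets, the list median as a red bar and dashed lines at 1.5-fold. Macrophage, lysosomal and cell cycle genes lie to the right, and Hox, imprinted and neuronal genes to the left, while glycolysis genes lie between the dashed lines.

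The genes farthest above the other cultures in replicate 3 were mainly myeloid. They included the chemokine receptor Ccr1, Pf4 and Cx3cr1, given above. The Fc receptor-like gene Fcrls, known from microglia, was at 118, 191 and 997 lcCPM. Nxpe5 was at 12.4, 17.4 and 102 lcCPM and the potassium channel Kcnn4 at 2.71, 4.34 and 23.4 lcCPM. Also among the 10 were the pseudogenes Rpl14-ps1 and Rpl38-ps2, which share over 80% of their sequence with other transcripts and are uncertain.

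The genes farthest below in replicate 3 were of other kinds. The kinase Nrk was at 18.5, 20.9 and 0.733 lcCPM, the epithelial proline-rich protein gene Sprr3 at 44.9, 36.8 and 1.8 lcCPM, Slc35d3 at 10.7, 11.2 and 0.776 lcCPM and the retinoic acid binding protein Crabp1 at 31.2, 36.5 and 2.54 lcCPM. The last of these 5 was the pseudogene Rpl31-ps8. Among protein-coding genes, the sialomucin Cd34, a marker of stromal and endothelial progenitors, was at 109, 101 and 14.9 lcCPM and among the 5 genes of largest BCV, as were Nxpe5, Fcrls and Fcgr2b. The 5 steadiest were Psmc5, Ube3c, Chd8, Pnrc2 and Pcmtd1. Psmc5, a proteasome ATPase, was at 259.6, 259.6 and 261 lcCPM.

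Imprinted genes of embryonic growth were added to the lists after H19 was seen. H19, a maternally expressed non-coding RNA, was at 2799, 2811 and 834 lcCPM, and its neighbour Igf2, the paternally expressed growth factor, at 773, 818 and 248 lcCPM. For Igf2, 61.9% of the 31-base stretches also occur in transcripts annotated to another gene. Cdkn1c was at 205, 239.7 and 59.1 lcCPM, Dlk1 at 56.5, 62.1 and 18.7 lcCPM and Plagl1 at 40.1, 35 and 12.4 lcCPM. All 11 imprinted genes that were tested were lowest in replicate 3, and 8 of them at least 1.5-fold below, against 6228 and 1466 (10.2%) of all 14402 genes tested. The list was chosen after values were seen, so its count supports nothing by itself.

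Replicates 1 and 2 differed in few genes of this kind. Of the 10 genes farthest above in replicate 2, all 10 share more than 50% of their sequence with other transcripts, among them Rps27rt and Gm10094, and so do the 5 farthest below, so their levels are uncertain. In replicate 1, 6 of 10 were of this kind. The other 4 were Gcg, Ppy, Alb and Fga, genes of the endocrine pancreas and the liver. Glucagon (Gcg) was at 22.9, 8.78 and 3.36 lcCPM and pancreatic polypeptide (Ppy) at 11.6, 4.04 and 5.02 lcCPM. Albumin (Alb) was at 61.5, 31.2 and 23.1 lcCPM, and the hepatic plasma proteins Hpx and Ahsg at 47.6, 25.4 and 11.7 and 33.4, 17.2 and 7 lcCPM. These liver genes were highest in replicate 1 and lowest in replicate 3. They were below Sox10 in each culture, but Alb in replicate 1 was close to S100b, which was at 63.4 lcCPM there. Of the 5 genes farthest below in replicate 1, 2 were protein-coding, Parvg and Gmfg, at 1.67, 4.95 and 15.2 and 1.49, 4.18 and 12.8 lcCPM, and both are genes of blood cells.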

How the data were processed

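Poly(A) RNA of the 3 control cultures was sequenced from stranded libraries. The deposited files hold raw counts, one value for each gene in each library. Per the labels and methods, the authors trimmed reads with cutadapt 1.15 and FastX, removed contaminants with Bowtie2 2.3.3.1, aligned to GRCm38 with STAR 2.5.2b and SAMtools 1.5, and prepared counts for edgeR, with featureCounts 1.5.3 among the listed tools. The strand setting, the annotation release and the treatment of reads with several alignments are not given in the sources used here. Counts of genes that share sequence or overlap on the other strand are therefore uncertain.

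Union exon lengths and positions came from GENCODE M21 (GRCm38). Identifiers without a match held 0.0431% to 0.0521% of counts per library and received no length-corrected level. Counts per kilobase were scaled by the TMM factors (trimmed mean of M-values) of edgeR 4.0.16 in R 4.3.3. Spread was the square root of the edgeR dispersion with an intercept alone, over 14402 genes kept by filterByExpr (minimum count 10, minimum total 15). A gene counted as apart in a library when its TMM-scaled level (prior count 0.5) was at least 1.5-fold above, or below, both others. On simulated counts with 200 of 14402 genes raised in 1 library by more than the 1.5-fold limit, 97% were found. This does not give the share found for genes that differ by about 1.5-fold. Totals of 21280920 to 23664312 counts set the precision, and PCR copies could not be recognised. Shared sequence was the percent of 31-base stretches that occur in a transcript of another gene. Promoter windows came from RefSeq (GRCm38.p6). Figures were drawn with matplotlib 3.10.9.

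Members and lists were chosen with earlier results of these data known. The rule for named genes took the markers of the label and the 20 highest protein-coding genes. It took the leading members of each list, with those at the floor or of widest range, and all secreted factors the study discussed. In each library, the 10 genes farthest above and 5 farthest below were taken, among genes at 10 or more. Of protein-coding genes at 10 or more in every library, the rule took the 5 of largest and the 5 of smallest dispersion. Genes named beyond it, and the liver and pancreas, imprinted and peptide genes, were chosen after their values were seen. A few genes that the rule takes are not reported here. The libraries of LPS cultures, and a table of the whole series, were not used here. Alternatives were other scaling factors, gene lengths, thresholds and filters, the DESeq2 1.42.0 dispersion, and each library left out.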

Additional observations from a re-analysis of the deposited data

How the results depend on the processing

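The number of genes at 1 or more in all cultures stayed within 1.5 times of 14010 under every alternative tried. List shares depended on what a share is taken of. As a share of counts, with no length correction, the mesenchymal list took 1.99%, the smooth muscle list 0.282%, the macrophage list 0.848%, the neuronal list 0.088% and the glial list 0.43%. Macrophage genes thus took less than mesenchymal genes, where the mean length-corrected shares were 2.08% and 0.922%, and the glial share fell from 0.645%. With the longest transcript as length, mesenchyme took 1.01% and smooth muscle 0.422%, and with protein-coding genes alone mesenchyme took 0.991%. Choices made after seeing the data moved a share most: the glial list took 0.157% without Apoe and the macrophage list 0.717% without Lyz2. The common BCV ranged from 0.0705 to 0.288 with 1 library left out, the lowest value being that without replicate 3, and by construction 2 libraries remain. At a 2-fold limit 27 genes were above and 38 below in replicate 1, 15 above and 19 below in replicate 2, and 448 above and 640 below in replicate 3. With protein-coding genes alone, an alternative added later, replicate 2 had 43 above and 37 below. At a threshold of 5, 1 chemokine receptor passed. Of 75 alternative percentiles of 15 single genes, 52 moved by less than the spread between cultures. Low genes are limited by depth: a gene at the floor may still be expressed. No paired analysis was possible because a single group was analysed.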
